A study of Mus musculus with 10 samples.

Results

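Unstimulated mouse cortical neurons carrying the control lentivirus give the baseline transcriptome described here, taken from 2 of the 10 libraries of the series. Both are polyA RNA libraries of wild-type primary cortical neurons, named control virus replicate 1 and control virus replicate 2. By their labels they belong to the group of 3 libraries that received control virus and no BDNF. Replicate 3 of that group was left out because of its counts, as given below. The study as a whole crossed control virus or a virus expressing the histone variant H2BE with BDNF (brain-derived neurotrophic factor) or no stimulation, and sequenced RNA 24 h later. No other group is used below.

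The neurons were dissected from cortices of C57BL/6J embryos at E16.5 (embryonic days) and grown on poly-D-lysine in supplemented neurobasal medium. AraC, a nucleoside that blocks DNA synthesis and so removes dividing cells, was added at 0.5 µM on day 3 to 4 in vitro. The labels do not give the age of the cultures at harvest, the content of the control virus, the number of embryos pooled, or whether replicates came from separate cultures. The difference between the replicates may therefore be technical. Replicate 3 of this group was left out, because it exceeded replicate 1 at 0 of 48526 genes and held 73.7% of its total count. Replicate 2, by contrast, exceeded replicate 1 at 2559 genes. With 2 libraries and no comparison between groups, every value is a level with its spread, and no test was made.

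Embryonic cortical cultures are rich in postmitotic neurons. Most are glutamatergic projection neurons born in the dorsal forebrain, and a minority are GABAergic interneurons that migrate in from the ventral forebrain. What a neuron can release and respond to is set by which member of each transporter, receptor and channel family it expresses, and several families exchange members as neurons mature. Astrocytes, oligodendrocyte precursors, microglia and vascular cells can survive dissection and contribute their own transcripts.

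Levels are given as CPM, the count of a gene scaled to a library total of 1000000 counts, in replicate 1 and then replicate 2. A longer transcript yields more reads at the same number of molecules. Ratios between genes therefore use CPM per kb, of merged exons unless another length is named, given as mean ± SD over n = 2 libraries or as the mean. Rankings by CPM or by share of the counts are not corrected for length. The SD of a level or ratio covers the spread of the libraries only, not the choice of length. CPM is a share of the polyA RNA, not a number of molecules per cell. In bulk RNA, fewer cells of a type and less RNA per cell cannot be told apart, so a marker level is not a share of cells.

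Replicate 1 held 14142545 counts and replicate 2 held 5682480. A gene with 3 counts or fewer in both libraries is given as at the floor, and 3 counts equal 0.212 CPM in the former and 0.528 CPM in the latter; intervals and floors cover counting error only. At 1 CPM or more in both libraries, 12914 genes were detected, of which 12137 were protein-coding, and these held 99.7 and 99.7% of all counts. Mean levels lay from 1 to 10 CPM for 3473 genes, from 10 to 100 CPM for 6858, from 100 to 1000 CPM for 2507 and above 1000 CPM for 76. The median detected gene stood at 30.7 and 30.4 CPM, or 6.46 and 6.45 CPM per kb over the 12886 genes with a length. The counts were spread over many genes. The 10 most abundant held 3.94 and 4.05% of the total, the top 100 held 15.3% in both libraries, and the top 1000 held 47.8% in both.

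The most abundant transcripts came from mitochondria and from the neuronal cytoskeleton. COX1, a mitochondrially encoded subunit of cytochrome oxidase, ranked first with 9976 and 10464 CPM, and CYTB, the cytochrome b subunit of complex III, ranked second with 5256 and 5403 CPM. Tuba1a, the main alpha tubulin of young neurons, was the first nuclear gene with 3491 and 3409 CPM. Map1b, a microtubule-associated protein of growing axons, followed with 3268 and 3471 CPM. Others in the top 20 were the complex I subunits ND1, ND5 and ND2, the mitochondrial ribosomal RNA mt-Rnr2, the calmodulin gene Calm3, the elongation factor Eef1a1, the growth cone protein Dpysl3, the chaperone Hsp90ab1, the microtubule proteins Mapt and Map2, the adaptor Ywhag, beta-actin Actb, the kinesin Kif1a and the membrane protein Gpm6a. Gpm6a, at the end of this set, had 1754 and 1726 CPM. No gene of the non-neuronal marker lists stood among the top 20.

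**Figure D1:**
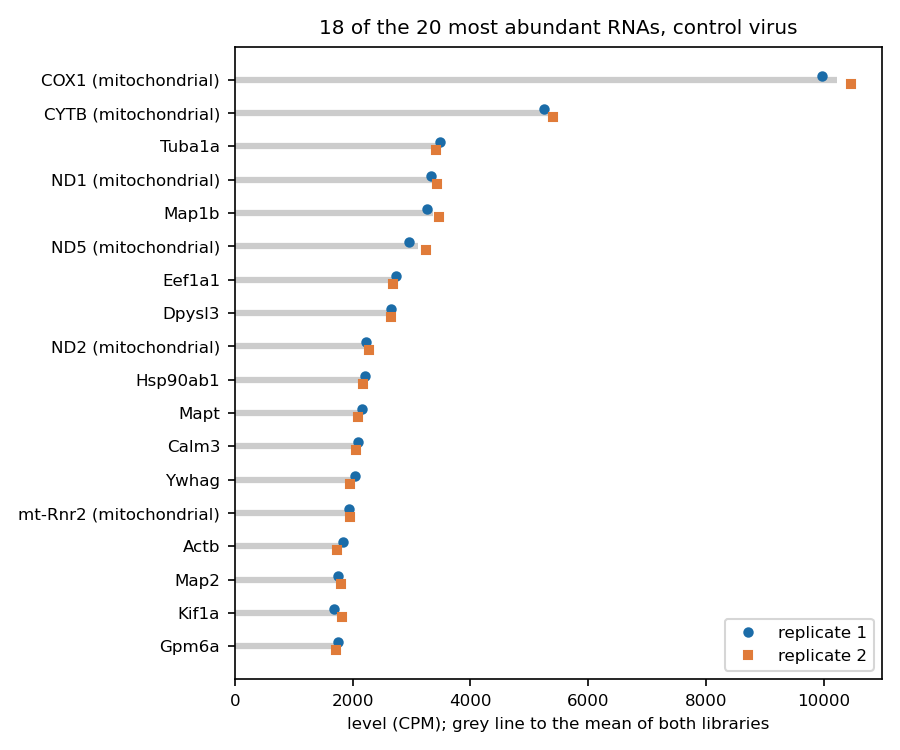
CPM of 18 of the 20 most abundant genes in replicate 1 (circles) and replicate 2 (squares). COX1 stands apart at 9976 and 10464 CPM, and the other genes drawn lie between 1682 and 5403 CPM, with the paired points of each gene close together.

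Per kb of exon, nuclear protein-coding genes took another order. Tuba1a led with 1913 ± 32.1 CPM per kb, followed by Eef1a1 at 1087 ± 16.1 CPM per kb and by Tmsb4x, which sequesters actin monomers, at 932 ± 43.4 CPM per kb. The neuropeptide precursor Sst came next at 882 ± 50.1 CPM per kb, followed by Calm3 (855 CPM per kb) and the stathmin Stmn3 (821 CPM per kb). Across the libraries the level of Sst overlapped with that of Tmsb4x and with that of Calm3. Calm2, the growth cone protein Gap43, the selenoprotein Selenow and the beta tubulin Tubb2b closed the first 10, between 741 and 817 CPM per kb. Sst was the single transmitter or peptide gene in that set. Exons of Tuba1a were overlapped over 26.2% of their length by another annotated gene, and the tubulin and actin genes resemble each other closely, so levels within those families depend on how ambiguous reads were counted.

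The cytoskeletal list of 37 genes was detected throughout and summed to 35590.3 and 35158 CPM, with a median of 176 and 176 CPM per kb. Among alpha tubulins, Tuba1a stood 17.7 ± 0.739 times as high per kb as Tuba1b. Among beta tubulins Tubb2b led with 741 ± 8.93 CPM per kb, and the neuron-specific Tubb3 at 707 ± 15.1 CPM per kb and Tubb2a at 704 ± 12.8 CPM per kb did not differ beyond their spread. Dcx, which marks young migrating neurons, reached 618 and 665 CPM. Of the collapsin response mediators, which guide axon growth, Dpysl3 was highest per kb at 400.3 ± 0.152 CPM per kb. Among the neurofilaments, the early-expressed Ina was at 179 ± 5.05 CPM per kb, Nefl at 71.5 CPM per kb and the late-expressed Nefh at 6.38 CPM per kb. Exons of Nefl are overlapped over 32.8% of their length by the Nefm annotation.

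Mitochondrially encoded transcripts held 2.93 and 3.03% of the counts, but their levels broke into separate ranges along the genome. Of 13 protein-coding genes, 7 exceeded 1000 CPM, namely COX1, CYTB, ND1, ND5, ND2, ND4 (1499 and 1563 CPM) and ND6 (1116 and 1044 CPM). COX2, ATP8, ATP6, COX3 and ND4L all lay under 2 CPM. COX2, a core subunit of the same enzyme as COX1, had 10 and 1 counts, COX3 had 8 and 2 counts, and ATP6, part of the ATP synthase, had 9 and 9 counts. ATP8 had 0 and 1 counts and ND4L had 3 and 0 counts, both at the floor, and ND3 had 186 and 84 counts. The annotated copies of this stretch on mouse chromosome 1 (24611535 to 24616197, GENCODE M21 on GRCm38) were also near 0, with 8 and 3 counts for Gm28439, 3 and 4 counts for Atp6-ps and 18 and 8 counts for Gm28661. How the counting treated reads that fit several places is not given, and its part in these low values was not tested. The low genes are therefore not read as low expression, and the mitochondrial share may be understated.

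**Figure D2:**
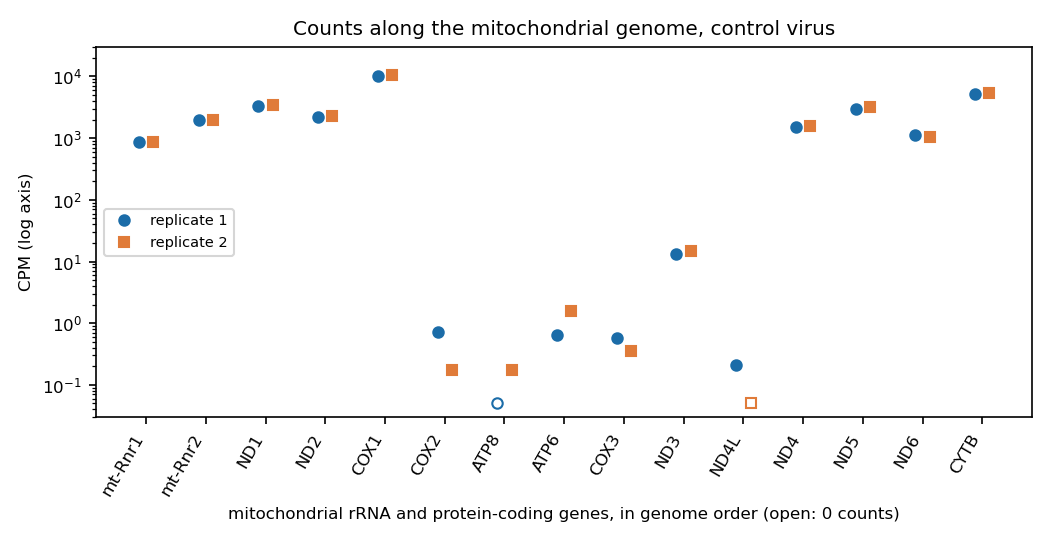
CPM of the mitochondrially encoded rRNA and protein genes in genome order, on a log axis, in replicate 1 (circles) and replicate 2 (squares). COX2, ATP8, ATP6, COX3 and ND4L lie under 2 CPM in a stretch bounded by COX1 and ND4, both above 1000 CPM, and ND3 lies near 14 CPM, in both libraries.

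Noncoding RNA was a small part of the counts. Genes annotated as lincRNA held 0.461 and 0.45%, and the imprinted transcripts Meg3 and Rian were in the top 100 at 1345 and 1176 CPM and 1045 and 1055 CPM. The 82 cytosolic ribosomal protein genes held 1.34 and 1.24% of the counts.

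The cultures expressed the machinery for both glutamate and GABA, and little for any other fast transmitter. Slc17a7, the vesicular glutamate transporter VGLUT1, stood at 244 and 237 CPM and 44.6 ± 0.909 CPM per kb. Slc17a6, which encodes VGLUT2, stood at 51.4 and 46.3 CPM, so that Slc17a7 was 4.94 ± 0.266 times as high per kb. Slc17a8 (VGLUT3) was at 2.19 and 4.4 CPM. Gls2, a glutaminase best known from liver, was at 3.11 and 3.52 CPM. Slc17a7 led this group per kb by merged exons and by the longest transcript, but not by the mean transcript length.

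GABA genes reached higher levels per kb. Gad1, a GABA-synthesizing decarboxylase, had 774 and 764 CPM and 101 ± 0.963 CPM per kb, the other decarboxylase Gad2 had 329.7 and 331 CPM, and the vesicular GABA transporter Slc32a1 had 183 and 179.7 CPM. Of the GABA uptake carriers known from glia and meninges, Slc6a11 had 43.6 and 41.4 CPM and Slc6a13 had 0 and 0 counts. Gad1 was 2.26 ± 0.0245 times as high as Slc17a7 per kb, and both libraries of Gad1 lay above both of Slc17a7. Slc32a1 was 1.46 ± 0.00927 times Slc17a7 per kb of merged exons but 0.832 times by the longest transcript and 0.698 times by the mean transcript length, so the order of the 2 vesicular transporters rests on the length used. These are ratios of transcripts, not of cells.

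Cholinergic and monoaminergic genes were near the floor. Chat, which makes acetylcholine, was at 0.424 and 0.88 CPM, and the vesicular acetylcholine transporter Slc18a3 at 0.99 and 0.352 CPM, while the hydrolase Ache reached 47.6 and 45.1 CPM. Of 12 genes for monoamine synthesis and transport, 2 were detected, the vesicular transporter Slc18a2 at 9.33 and 7.22 CPM and the dopamine transporter Slc6a3 at 1.2 and 1.76 CPM. Th, the first enzyme of catecholamine synthesis, stood at 1.2 and 0.704 CPM. The 7 members at 3 counts or fewer in both libraries were Ddc, Pnmt, Tph1, Hdc, Slc18a1, Slc6a2 and Slc6a4. The glycine transporter of glycinergic terminals, Slc6a5, was also at the floor with 2 and 1 counts, and Slc6a9 stood at 28.7 and 29.7 CPM.

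Of the Slc1 family genes listed, Slc1a4, a neutral amino acid transporter, was highest per kb with 53.5 ± 2.43 CPM per kb. Slc1a2, the glutamate uptake carrier best known from astrocytes, stood at 313 and 332 CPM and 24.6 ± 1.05 CPM per kb. It was the highest glutamate carrier listed, and it led the whole family by mean transcript length. The neuronal carrier Slc1a1 had 79.8 and 78.3 CPM, with 31.9% of its exon length overlapped by another gene.

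Transcripts of peptide transmitters were dominated by that of somatostatin, a peptide released by a class of cortical interneurons. Sst had 661 and 610.1 CPM and 882 ± 50.1 CPM per kb, among the 10 highest nuclear protein-coding genes per kb. Npy, released by overlapping interneuron classes, was the next precursor with 93.7 and 66.3 CPM, and Sst stood 6.38 ± 1.19 times as high per kb. Nxph1, a secreted neurexin ligand of interneurons, had 171 and 182 CPM, and Pnoc, the precursor of nociceptin, had 62.7 and 64.1 CPM. Adcyap1 (12.7 CPM per kb), Penk (22.1 CPM per kb), Cort (28.4 CPM per kb), Cck (21 CPM per kb) and Pthlh (14.6 CPM per kb) formed a middle range. Pnoc and Cort, and Penk and Cck, did not differ beyond the spread of the libraries. Of 32 precursors 18 were detected, and 8 were at 3 counts or fewer in both libraries, namely Oxt, Hcrt, Pmch, Nmu, Calcb, Adm, Edn1 and Edn3. Vip, the peptide of another interneuron class, was at 2.4 and 1.76 CPM.

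Transcripts for proteins of the dense-core vesicle, which stores and processes such peptides, were more abundant than those of most precursors. All 10 were detected, with a median of 116 and 108 CPM per kb against 1.47 and 1.18 CPM per kb for the precursors. Cpe, the carboxypeptidase that trims peptide precursors, led with 1186 and 1155 CPM and 449 ± 8.34 CPM per kb. The granins Scg2 (247 ± 12 CPM per kb) and Vgf (235 ± 0.68 CPM per kb) came next, followed by Chgb (175 ± 2.61 CPM per kb). Scg3 and Chga, at 91.3 ± 4.97 CPM per kb and 88.3 ± 4.63 CPM per kb, did not differ beyond their spread. Of the prohormone convertases, which cut precursors at basic residues, Pcsk2 had 134 and 132 CPM and Pcsk1 had 48.6 and 53 CPM.

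Sst and several of these vesicle genes share a short upstream sequence, shown because Sst is the highest peptide gene in the cultures. The letters TGACGTCA, the full cyclic AMP response element, read the same on both strands. They occurred in the RefSeq promoter window (250 bases before to 50 after the start, GRCm38.p6) of 5 of the 35 peptide and granin genes that have one (14.3%), out of 42 on the list. Over all 32817 distinct windows of that length, 588 held it (1.79%). The first share counts genes, and the 35 genes have 37 windows, whereas the second share counts windows. The 5 genes were Sst, Scg2, Chgb, Pcsk1 and Cartpt (7.92 and 14.1 CPM). The motif was picked after these levels were known, a match is not evidence of binding, and windows without it may hold related letters. The 150 bases upstream of the start follow for 4 of these genes, from 5′ to 3′ on the strand of the gene, with the element in capitals; they span chr16:23890845-23890994, minus strand for Sst, chr1:79440027-79440176, minus strand for Scg2, chr2:132781492-132781641, plus strand for Chgb and chr13:75089707-75089856, plus strand for Pcsk1.
Sst: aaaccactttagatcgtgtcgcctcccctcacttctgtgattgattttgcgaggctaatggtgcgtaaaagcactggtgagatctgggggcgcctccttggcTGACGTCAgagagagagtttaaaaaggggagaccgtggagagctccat
Scg2: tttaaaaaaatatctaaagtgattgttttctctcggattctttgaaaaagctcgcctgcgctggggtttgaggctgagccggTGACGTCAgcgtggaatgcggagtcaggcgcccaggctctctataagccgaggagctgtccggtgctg
Chgb: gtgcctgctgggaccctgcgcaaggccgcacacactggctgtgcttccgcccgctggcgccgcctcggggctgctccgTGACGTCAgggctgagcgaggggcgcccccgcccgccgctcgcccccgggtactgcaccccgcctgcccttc
Pcsk1: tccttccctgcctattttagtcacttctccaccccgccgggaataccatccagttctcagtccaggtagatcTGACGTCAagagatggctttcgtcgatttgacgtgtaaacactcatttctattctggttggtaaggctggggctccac
The first base of the element lay 48 bases before the start in Sst, 68 in Scg2, 72 in Chgb and 78 in Pcsk1.

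Ionotropic glutamate receptor subunits of every class were detected. AMPA receptors carry most fast excitation, and Gria2, whose subunit limits calcium entry, had the largest share of the counts with 769 and 781 CPM. Gria1 had 429.9 and 428 CPM, Gria4 136 and 131 CPM and Gria3 88 and 88.5 CPM. Per kb of merged exons Gria1 was 1.42 ± 0.0206 times as high as Gria2, but the ratio was 1.03 by the longest transcript and 0.67 by the mean transcript length, so the order of this pair depends on the length used. Gria3 was the lowest of the 4 at 8.95 ± 0.0399 CPM per kb. Among the 11 auxiliary subunits, all detected, the cornichon Cnih2 led with 198 ± 0.61 CPM per kb, followed by the TARPs Cacng7 (62.1 CPM per kb) and Cacng4 (42.6 CPM per kb). Stargazin, Cacng2, was at 12.6 ± 0.0144 CPM per kb.

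NMDA receptors pair the obligatory subunit Grin1 with a variable one. Grin1 had 289 and 279.6 CPM and 29.3 ± 0.708 CPM per kb. Grin2b, the subunit of immature synapses, had 452 and 492 CPM, and Grin2a, which replaces it as synapses mature, had 44 and 53.3 CPM. Per kb Grin2b was 7.04 ± 0.539 times as high as Grin2a, and no length measure brought this ratio under 5.93. Grin2d reached 4.83 ± 0.0446 CPM per kb and Grin3a 3.5 ± 0.0802 CPM per kb, while Grin2c at 0.283 and 0.352 CPM and Grin3b at 1 and 1 counts were not detected. Of the kainate receptors Grik5 (39.6 ± 1.68 CPM per kb) and Grik3 (17.2 ± 0.285 CPM per kb) led. Grik5 led under each length, but Grik3 did not come second by the longest or the mean transcript length. Neto2 (49.6 CPM per kb) exceeded the other kainate auxiliary subunit Neto1 (6.31 CPM per kb). The delta receptor Grid1 had 44.3 and 51.6 CPM.

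Of the 8 metabotropic glutamate receptors, Grm5 led with 277 and 311 CPM. It couples to phospholipase C and stood at 28.7 ± 2.33 CPM per kb. The inhibitory receptors Grm2 (9.91 ± 0.24 CPM per kb) and Grm3 (8.36 ± 1.89 CPM per kb) came next, and the retinal Grm6 was at the floor with 0 and 1 counts.

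GABA-A receptors are pentamers usually built from alpha, beta and gamma subunits. Gabra5, known from the developing forebrain and from extrasynaptic receptors, had 162 and 188 CPM and 58.9 ± 6.2 CPM per kb, the highest alpha subunit per kb of merged exons and by the longest transcript but not by the mean transcript length. Gabra3, also high in development, stood at 17.6 ± 1.4 CPM per kb, Gabra2 at 14.7 ± 0.38 CPM per kb and Gabra4 at 9.8 ± 0.761 CPM per kb. Of the other subunits Gabrb2 had 119.6 and 156 CPM, Gabrb1 224 and 241 CPM, Gabrg1 42 and 41.9 CPM and Gabrg3 42.5 and 39.1 CPM. The cerebellar Gabra6 had 1 and 1 counts, Gabrr2 had 3 and 1 counts, and Gabrp and Gabrr3 had no count in either library. The extrasynaptic Gabrd stood at 12.8 and 13.6 CPM.

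Both subunits of the metabotropic GABA-B receptor were present, Gabbr1 at 866 and 897 CPM and Gabbr2 at 199 and 214 CPM. Glycine receptors were represented by Glrb (41.2 ± 1.28 CPM per kb) and the embryonic alpha subunit Glra2 (35.2 ± 0.134 CPM per kb), which was 63.4 ± 8.16 times as high as Glra3 per kb. The ratio of Glra2 to Glra3 was 44.8 by the longest transcript and 34.8 by the mean transcript length. Glra1, the adult spinal subunit, had 3 and 1 counts and Glra4 had none. The scaffold Gphn, which anchors both receptor kinds, had 108 and 104 CPM. Slc12a5, the neuronal chloride extruder KCC2 whose rise makes GABA inhibitory, had 262 and 265 CPM, and Slc12a2, the importer NKCC1, had 53.2 and 55.6 CPM. Per kb the extruder was 7.11 ± 0.156 times the importer, and the ratio was 5.24 by the longest transcript and 11.7 by the mean transcript length.

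**Figure D3:**
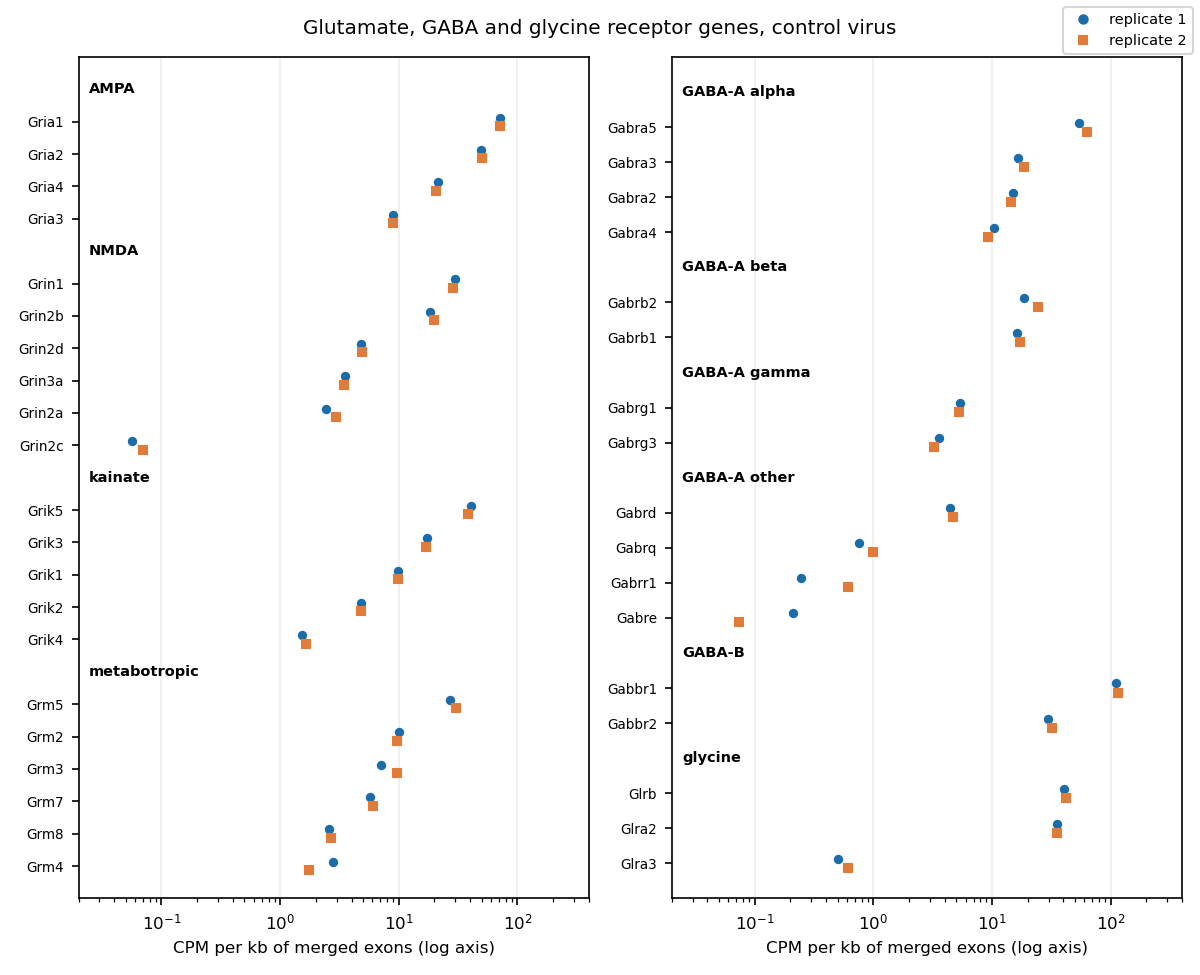
CPM per kb of merged exons, on a log axis, for glutamate receptor subunits and for GABA-A, GABA-B and glycine receptor subunits, in replicate 1 (circles) and replicate 2 (squares); members at 3 counts or fewer in both libraries are not drawn. Grin2b lies well above Grin2a, and Gabra5 and Glrb head their groups; a few subunits are not drawn.

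Receptors for other transmitters were lower. Of 13 nicotinic subunits 5 were detected, led by Chrnb2 (11.2 ± 0.461 CPM per kb), with Chrna7 (7.01 CPM per kb) and Chrna4 (6.82 CPM per kb) not differing beyond their spread. Chrna6, Chrna9, Chrna10 and Chrnb3 had no count and Chrnb4 had 1 and 0 counts. The 5 muscarinic receptors were all detected. Chrm4 (8.59 ± 0.475 CPM per kb) and Chrm1 (7.44 ± 0.274 CPM per kb) led per kb, and Chrm1 had 49.5 and 47 CPM. By mean transcript length Chrna4 and Chrm1 led these families.

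The serotonin receptors Htr7 (5.32 ± 0.233 CPM per kb) and Htr2c (3.25 ± 0.0344 CPM per kb) headed a family in which 10 of 14 were detected, and Htr2b (0 and 1 counts) and Htr3b (0 and 0 counts) were at the floor. Htr2c led by the longest and the mean transcript length. Drd1 was the highest dopamine receptor at 8.2 and 7.22 CPM. Drd3 had no count and Drd5 had 5 and 0 counts. The adrenergic receptors Adrb1 (4.46 ± 0.605 CPM per kb) and Adra2c (3.68 ± 0.502 CPM per kb) did not differ beyond their spread, and Adra2b was at the floor. The same held for the histamine receptors Hrh1 (1.7 ± 0.162 CPM per kb) and Hrh3 (1.5 ± 0.495 CPM per kb), and Hrh4 had no count.

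Some receptors that inhibit release or firing reached higher levels, such as 50.3 CPM per kb for Cnr1 and 19.3 CPM per kb for Adora1. Cnr1, the neuronal cannabinoid receptor, had 320.0 and 328 CPM while Cnr2, known from immune cells, had 3 and 2 counts. Adora1, the inhibitory adenosine receptor, had 116 and 107 CPM, and Adora2b and Adora3 were at the floor. Among opioid receptors the nociceptin receptor Oprl1 had 51.5 and 54.7 CPM, and the mu receptor Oprm1, delta receptor Oprd1 and kappa receptor Oprk1 stayed under 1 CPM in the mean. Of the adhesion receptors, the latrophilin Adgrl1 had 554 and 552 CPM (64.4 CPM per kb) and Adgrb1 had 253 and 246 CPM (34.6 CPM per kb).

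Of the neurotrophin receptor genes, Ntrk2, which encodes the BDNF receptor TrkB, had 624 and 646 CPM, and Ntrk3 (TrkC) had 178 and 183 CPM. Per kb Ntrk2 was 5.49 ± 0.0306 times Ntrk3, and the ratio was 7.91 by the longest transcript and 2.39 by the mean transcript length. Sort1, which sorts neurotrophins, stood at 34.6 ± 1.68 CPM per kb beside 32.9 ± 0.819 CPM per kb for Ntrk2, and they did not differ beyond their spread. Bdnf itself was the highest ligand with 96.3 and 85.7 CPM. Ntf3 had 4.1 and 3.17 CPM and Ntf5 had 0 and 1 counts.

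Voltage-gated sodium channels carry the action potential. Scn2a, the main channel of young axons, had 326 and 365 CPM, Scn8a, which joins it at mature axon initial segments, had 123 and 137 CPM, the embryonic Scn3a had 90.3 and 95.7 CPM and Scn1a, important in interneurons, had 62.1 and 68.1 CPM. Scn2a was 3.28 ± 0.00902 times as high as Scn8a per kb, and the ratio was 2.54 or more under each length. The muscle channel Scn4a and the sensory neuron channel Scn10a had no count. Of the beta subunits, Scn3b stood at 27.9 ± 0.565 CPM per kb and Scn2b at 19.2 ± 0.309 CPM per kb.

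Calcium channels of the release site were the highest alpha-1 subunits per kb. Cacna1b (N-type) had 180.0 and 184 CPM and Cacna1a (P/Q-type) had 163 and 167 CPM. Cacna1b was 1.26 ± 0.00386 times Cacna1a by merged exons but 0.896 times by the longest transcript and 0.712 times by the mean transcript length. The T-type channels Cacna1h (7.9 ± 0.813 CPM per kb) and Cacna1i (7.04 ± 0.865 CPM per kb) did not differ beyond their spread, and the L-type Cacna1c stood at 3.1 ± 0.213 CPM per kb. The retinal Cacna1f and the auxiliary Cacna2d4 were at the floor. Cacna2d1, the alpha2-delta subunit bound by gabapentin, led its group with 22.4 ± 0.514 CPM per kb, and the beta subunits Cacnb3 and Cacnb1 were level at 25.6 ± 0.249 CPM per kb and 25.5 ± 0.125 CPM per kb.

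Potassium channels set resting potential and repolarization, and 51 of the 59 genes listed were detected. The highest per kb was the inward rectifier Kcnj4 with 55.9 ± 4.1 CPM per kb, followed by the A-type channel Kcnd2 with 28.1 ± 0.191 CPM per kb. Of the Kv7 subunits, which carry the M current that restrains repetitive firing, Kcnq5 had 122 and 123 CPM and Kcnq3 had 93.1 and 106 CPM. Kcnq1, the cardiac member, was at the floor with 0 and 2 counts. Kcnj3, a subunit of the G protein-gated channel, had 21.6 ± 1.32 CPM per kb. Kcna6 (17.6 ± 0.316 CPM per kb) led the Kv1 group and Kcnc4 (15.3 ± 1.25 CPM per kb) the Kv3 group. Exons of Kcna6 were overlapped over 39.6% of their length by another gene, and those of Kcnj3 over 31.1%.

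The interneuron-enriched fast channels Kcnc1 and Kcnc2 had 80.3 and 82.2 CPM and 69.1 and 71.6 CPM. Kcna4, Kcna3, Kcna2 and Kcna1 followed Kcna6 with no neighbour apart from the next, from 9.69 ± 1.14 CPM per kb down to 7.36 ± 1.16 CPM per kb. Kcnma1 (BK) led the calcium-activated group with 5.39 ± 0.654 CPM per kb, Kcnk1 the tandem-pore group with 17.6 ± 0.893 CPM per kb, and Kcnh2 the ether-a-go-go group with 8.43 ± 0.0401 CPM per kb. Kcna7, Kcna10, Kcnn4, Kcnj8 and Kcnj13 had no count in either library, and Kcnk5 had 1 and 1 counts. All 4 pacemaker channels were detected, with Hcn2 (44.1 ± 0.375 CPM per kb) above Hcn3 (21.3 ± 1.97 CPM per kb) and Hcn4 at 5.21 ± 0.522 CPM per kb. By mean transcript length Hcn3 led in place of Hcn2, Kcnd3 in place of Kcnd2, Kcnc1 in place of Kcnc4, Kcnk2 in place of Kcnk1 and Kcnh3 in place of Kcnh2.

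**Figure D4:**
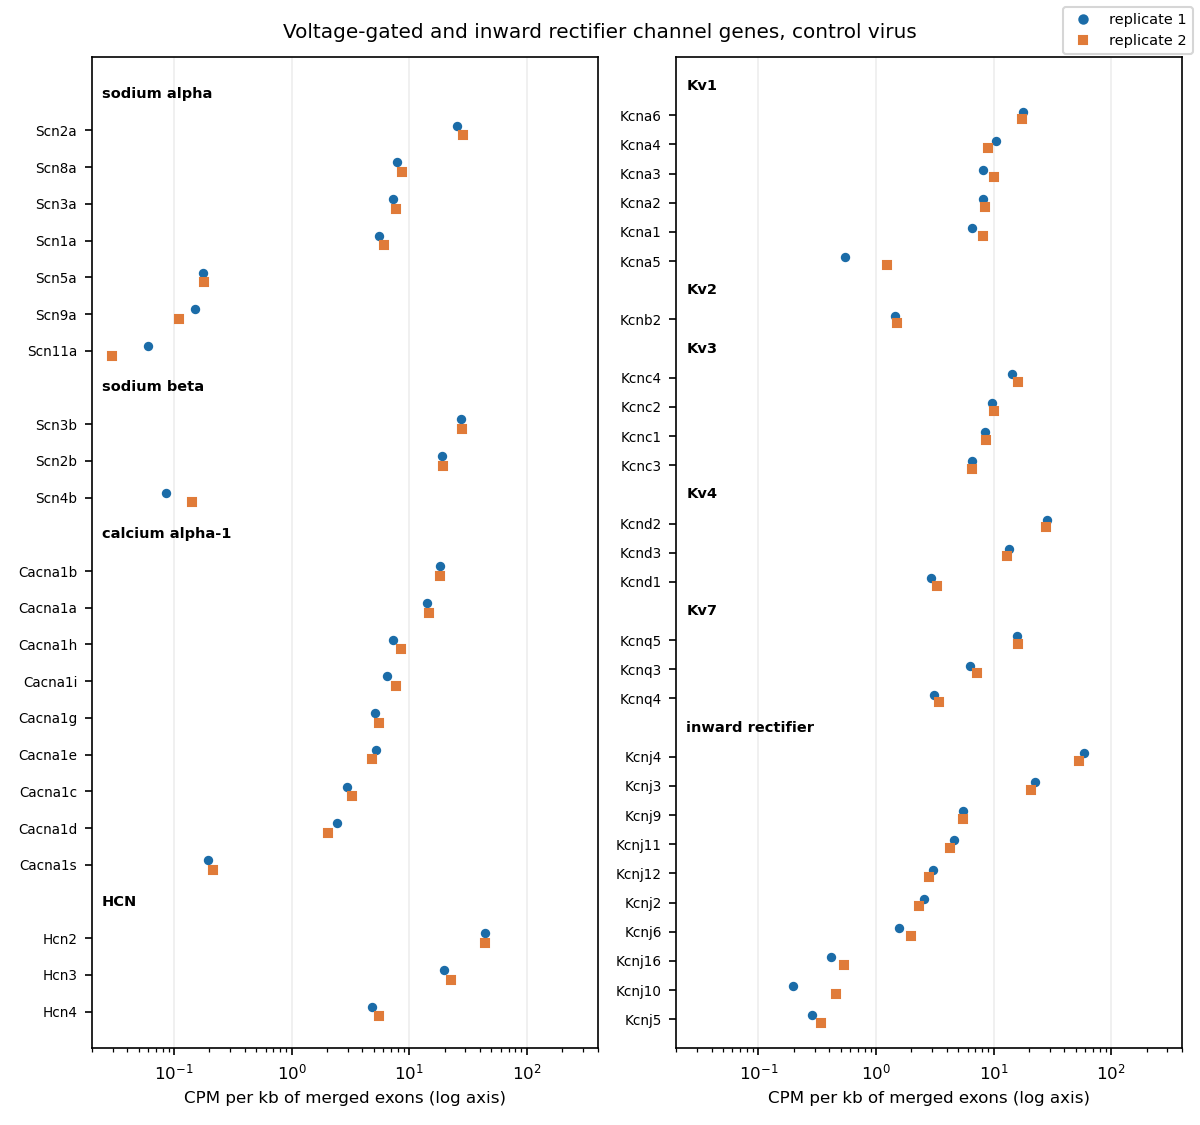
CPM per kb of merged exons, on a log axis, for sodium, calcium, pacemaker and selected potassium channel subunits in replicate 1 (circles) and replicate 2 (squares); members at 3 counts or fewer in both libraries are not drawn. Kcnj4 and Hcn2 are among the highest, a few subunits are not drawn, and paired points drift apart mainly below 1 CPM per kb.

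Transcripts of presynaptic release proteins were abundant. The SNARE list of 8 genes summed to 3818 and 3712 CPM, with the vesicle SNARE Vamp2 at 1064 and 1004 CPM and the plasma membrane SNARE Snap25 at 617 and 619 CPM. Vamp2 was 166 ± 7.33 times as high as Vamp1 per kb, and Snap25 was 112 ± 8.11 times as high as its ubiquitous relative Snap23. Syt1, the fast calcium sensor, had 1101 and 1132 CPM, and Syt11, which does not bind calcium, stood slightly above it per kb at 148 ± 2.07 CPM per kb against 134 ± 2.64 CPM per kb. That order turned under the longest and the mean transcript length. Syt2, the sensor of hindbrain and other fast synapses, was at 2.05 and 2.99 CPM.

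Cplx1 (305 ± 0.901 CPM per kb) led the complexins and Syn1 (126 ± 0.68 CPM per kb) the synapsins, and the retinal Cplx4 was at the floor. Unc13a (34 ± 1.67 CPM per kb) and Rims1 (31.9 ± 0.237 CPM per kb) were highest of the active zone proteins. The presynaptic adhesion gene Nrxn2 stood at 57.9 ± 1.79 CPM per kb and Nrxn3 at 19.3 ± 0.999 CPM per kb. Across the cleft, Nlgn2, the neuroligin of inhibitory synapses, was 9.91 ± 0.394 times Nlgn3. Exons of Nlgn3 are overlapped over 41.2% of their length by another gene.

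On the postsynaptic side, Dlg4 (PSD-95) had 464 and 474 CPM and Dlg2 (PSD-93) had 332 and 385 CPM. Shank3 (22.7 ± 1.11 CPM per kb) and Shank1 (21 ± 0.358 CPM per kb) were the highest Shank scaffolds, and Homer1 was 1.64 ± 0.0794 times Homer2 per kb. Camk2b, the calcium kinase subunit that binds actin and is expressed early, had 723 and 686 CPM against 188 and 180.0 CPM for Camk2a, which dominates adult forebrain. Per kb the ratio was 3.14 ± 0.023, and it was 3.47 by mean transcript length and 4.62 by the longest. The neuronal RNA-binding proteins Ptbp2 and Elavl3 exceeded their widely expressed relatives per kb. Ptbp2, the neuronal polypyrimidine tract-binding protein, was 8.18 ± 0.621 times Ptbp1, the form of progenitors and non-neuronal cells. Elavl3 was 10.1 ± 0.0327 times the ubiquitous Elavl1, and Rbfox3, the nuclear antigen NeuN, had 90.4 and 86.9 CPM.

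Of the 62 families with at least 2 members compared in this way, the leading member had both libraries above both libraries of the next member in 58. The exceptions were the adrenergic, histamine and neurotrophin receptors and the calcium channel beta subunits. The leader was picked by the same 2 libraries, so this count describes their spread and does not test the orders. The leader was the same under all 3 length measures in 45 families. The leader by the mean of both libraries was also the leader in replicate 1 alone in 62 families and in replicate 2 alone in 60.

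Markers of cortical excitatory neurons and of interneurons were both present in full. Within the marker lists genes are named in the order of CPM, which is not corrected for length. All 12 excitatory markers were detected, with a sum of 1582 and 1584 CPM. Mef2c (405 and 416 CPM), Slc17a7, Camk2a and the dorsal forebrain transcription factor Neurod6 (170.3 and 173 CPM) were the highest. All 9 general interneuron markers were detected, with a sum of 1597 and 1593 CPM that came mostly from Gad1, Gad2 and Slc32a1. The ventral forebrain transcription factor Dlx1, which marks interneurons and other ventral derivatives, had 101 and 104 CPM, Dlx5 14.4 and 15.3 CPM and Dlx2 11 and 15.1 CPM.

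Markers of upper and deep cortical layers had overlapping median levels. The 12 upper layer markers were all detected with a median of 7.19 and 8.11 CPM per kb, and the 12 deep layer markers with 7.73 and 7.65 CPM per kb. Pou3f3 (189 and 182 CPM), Kitl (109 and 118 CPM) and Unc5d (83.2 and 96.4 CPM) were the highest of the former. Bcl11b, the transcription factor of subcerebral projection neurons that interneurons also express, had 199.8 and 206 CPM, Tle4 130.4 and 138 CPM and Tbr1, needed for corticothalamic neurons, 122 and 116 CPM. Cux2, an upper layer factor, had 54 and 58.1 CPM. Some genes on these lists are shared between cell types, so the medians do not weigh the layers against each other.

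Some genes listed as markers of early-born cells of the marginal zone and subplate were also detected. Of the Cajal-Retzius list, 7 of 7 were detected, headed by the secreted guidance protein Reln with 898 and 999 CPM, Cacna2d2 with 83.3 and 92.6 CPM and Ndnf with 74.1 and 76.9 CPM. All of these are also expressed by interneurons. Trp73, the more specific transcription factor, had 20.4 and 19.2 CPM, and Lhx5 and Lhx1 had 3.82 and 4.58 CPM and 4.17 and 6.51 CPM. Of 6 subplate markers 3 were detected, Nr4a2 at 63.4 and 78.7 CPM, Ccn2 at 30.4 and 32.2 CPM and Nxph4 at 9.05 and 10.7 CPM, while Cplx3 stood at 0.778 and 0.704 CPM, Moxd1 at 0.849 and 1.76 CPM and Lpar1 at 2 and 1 counts. Nr4a2 is also an activity-induced gene and Ccn2 is also expressed by fibroblasts.

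Among interneuron classes, markers of the medial ganglionic eminence had a median of 7.49 and 8.05 CPM per kb and those of the caudal ganglionic eminence 2.36 and 2.59 CPM per kb. Of the 8 medial markers 7 were detected, with Sst, Satb1 (214 and 216 CPM) and Lhx6 (78.7 and 82.2 CPM), the transcription factor of this lineage, among the highest beside Npy. Pvalb, which marks its fast-spiking class in the mature cortex, had no count in either library, which allows up to 0.212 CPM in replicate 1 and 0.528 CPM in replicate 2. The 10 caudal markers were all detected. Nr2f2 (44.8 and 42.4 CPM), Adarb2 (31.4 and 37.1 CPM) and Cck (28.6 and 26 CPM) were the highest of these, Calb2 had 15.7 and 17.8 CPM and Htr3a 6.58 and 6.69 CPM.

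Genes listed as markers of other forebrain regions were also detected. Penk and Tac1 are on the peptide list too and Prox1 on the caudal interneuron list, so detection does not show cells of these regions. Of 12 striatal markers 10 were detected, with Pde10a at 124 and 121 CPM, Penk at 37.4 and 34.7 CPM and Tac1 at 26.9 and 22.2 CPM, but Isl1 had 1.77 and 0.88 CPM and Ebf1 had 0.636 and 0.528 CPM. Of 7 hippocampal markers all were detected, led by Wfs1 (53.2 and 53 CPM), Zbtb20 (43 and 41 CPM) and Man1a (19.9 and 17.6 CPM), with the granule cell gene Prox1 at 6.93 and 8.45 CPM. Of 5 thalamic markers 4 were detected, and Rora (11.7 and 11.4 CPM), Prkcd (2.47 and 3.34 CPM) and Lhx9 (1.27 and 1.94 CPM) were the highest. The forebrain factor Lhx2 had 52.1 and 48.6 CPM and Emx1, of the dorsal telencephalon, 27.6 and 27.3 CPM. None of 14 midbrain and hindbrain factors was detected, and 12 of them were at 3 counts or fewer in both libraries, among them En1, En2, Pax3, Pax7 and the Hox genes listed. These values do not go against the labelled tissue, cortex.

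Markers of non-neuronal cells were low but not absent. The 21 neuronal markers were all detected, with a median of 22.3 and 21.1 CPM per kb. Of 73 markers of 9 other cell classes, 35 were detected and 20 were at 3 counts or fewer in both libraries, with a median of 0.281 and 0.368 CPM per kb. The ratio of the medians was 79.3 in replicate 1 and 57.4 in replicate 2 (68.4 ± 15.5, SD, n = 2), and the ratio of the means over the lists was 14.2. A median over a list hides its most abundant members, which are given by class below.

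Of 14 astrocyte markers 12 were detected, with a sum of 526 and 512 CPM, of which Slc1a2 (313 and 332 CPM) and Apoe (96.2 and 76.2 CPM) made up most. Cultured neurons can express both. Slc1a3 came next, with 38.3 and 31 CPM. The defining genes of differentiated astrocytes were lower, with the filament protein Gfap at 3.11 and 2.29 CPM, the water channel Aqp4 at 5.37 and 3.7 CPM, the folate enzyme Aldh1l1 at 9.76 and 9.68 CPM and the gap junction gene Gja1 at 4.74 and 3.17 CPM. Gjb6 had no count in either library.

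Of 7 oligodendrocyte precursor markers 4 were detected, but the highest, Lhfpl3 (48.6 and 47.7 CPM), is also expressed by neurons. Olig1 had 10.5 and 7.92 CPM, Cspg4 3.11 and 2.99 CPM and Olig2 2.97 and 1.76 CPM. Sox10, the defining factor of the lineage, had no count, and Gpr17 had 0 and 2 counts. Of 8 oligodendrocyte markers 4 were detected. Mbp (20.4 and 20.1 CPM), Cnp (12.9 and 11.3 CPM) and Mog (6.43 and 8.27 CPM) were the highest, and Mag, Mobp, Opalin and Myrf were at the floor.

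Microglial genes were close to the floor, with 4 of 12 detected. Cd68 (5.23 and 4.58 CPM), C1qa (2.55 and 2.99 CPM) and C1qc (2.12 and 1.58 CPM) were the highest. Tmem119, specific to microglia, had no count, P2ry12 had 0 and 1 counts and Cx3cr1 6 and 2 counts. None of 8 endothelial markers was detected, with 11 and 12 counts for Flt1, 14 and 7 counts for Pecam1 and 9 and 4 counts for Kdr, and with Cldn5, Slco1a4, Cdh5 and Emcn at 3 counts or fewer. None of 5 blood markers was detected. Alas2 had 11 and 2 counts, and Hbb-bs, Hbb-bt, Hba-a1 and Hba-a2 were at the floor.

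Connective tissue genes had a median of 1.39 and 2.2 CPM per kb, against 0.0288 and 0.0527 CPM per kb for the endothelial genes. Of 7 fibroblast markers 6 were detected, with a sum of 64.4 CPM in replicate 1 and 87.6 CPM in replicate 2. The matrix protein Fn1 had 16.2 and 25.7 CPM, the proteoglycan Dcn 19.4 and 19.5 CPM and the collagen Col1a1 11.7 and 18.3 CPM, and Lum had 3 and 3 counts. Of 7 mural cell markers 4 were detected, with Rgs5 (21.4 and 18.7 CPM), which neurons also express, above Tagln (4.88 and 10.7 CPM) and Acta2 (4.6 and 7.04 CPM). Exons of Tagln are overlapped over 67.9% of their length by other genes, and Kcnj8 had no count.

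Proliferation genes were near the floor. None of 9 proliferation genes reached 1 CPM in both libraries, with a sum of 4.81 and 6.16 CPM. Mki67 had 8 and 2 counts, Top2a 6 and 4 counts and Cdk1 4 and 3 counts, while Plk1 had 0.919 and 1.23 CPM, Ccna2 0.919 and 1.06 CPM and Birc5 0.424 and 1.23 CPM. Ccnb1 was at the floor with 3 and 1 counts. Genes first known from progenitors were present nonetheless, 8 of 9, led by Vim (66 and 60.5 CPM), Fabp7 (52.3 and 43.6 CPM) and Sox2 (20.7 and 28.2 CPM). Young neurons and astrocytes also express these 3. Pax6 had 3.96 and 4.93 CPM and Eomes, the factor of intermediate progenitors, 8.06 and 12 CPM. Of 5 choroid plexus and ependymal genes only Foxj1 was detected, at 4.67 and 4.05 CPM, with Folr1 at 4 and 6 counts, Ttr at 10 and 3 counts and Kl at 2 and 1 counts.

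**Figure D5:**
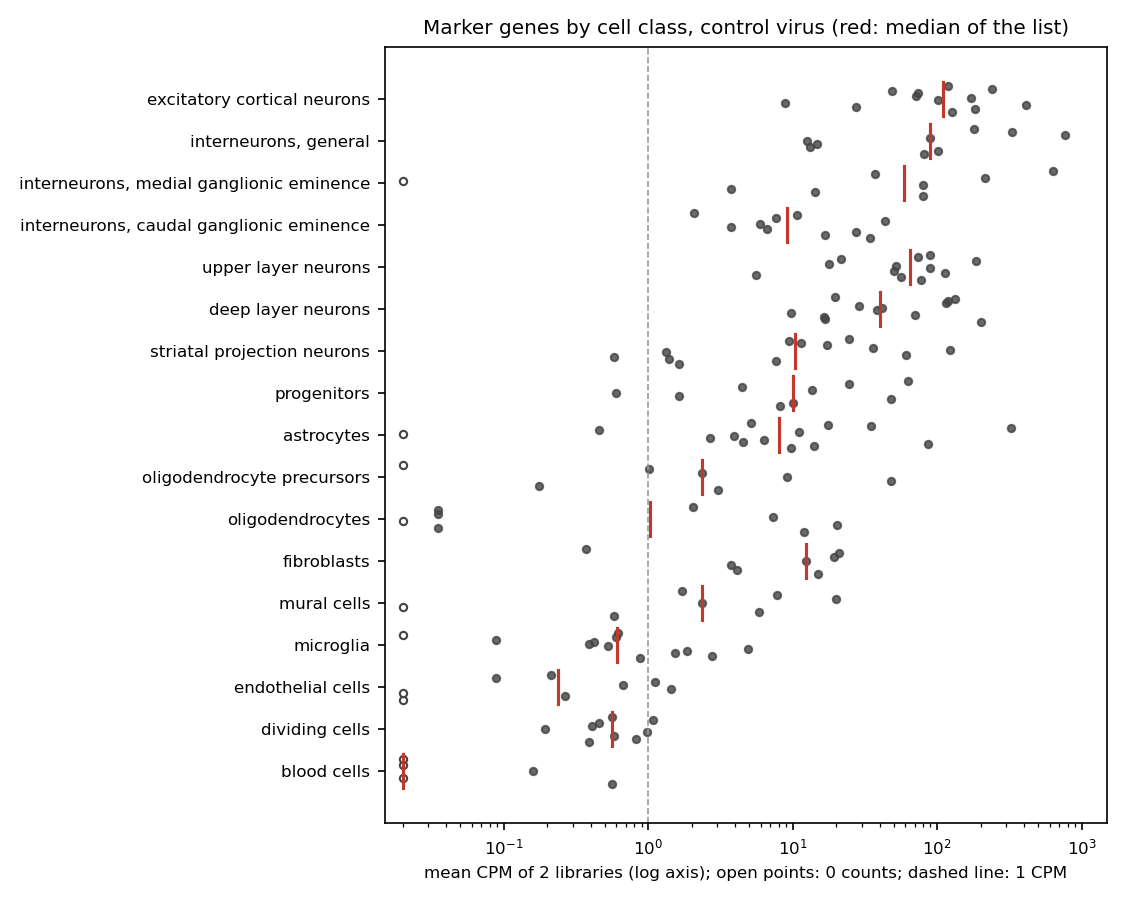
Mean CPM of the 2 libraries, on a log axis, of each marker gene by cell class; open points at the left edge mark genes with 0 counts, red bars the median of each list and the dashed line 1 CPM. Neuronal classes lie mostly above 1 CPM, whereas endothelial, blood, microglial and proliferation markers lie mostly below it.

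The 2 libraries gave closely similar levels. Over the 7674 genes whose mean reached 20 CPM, the log2 ratio of replicate 1 to replicate 2 had an SD of 0.13, with a chi-squared of 2.16 per degree of freedom, where counting error alone gives about 1. The correlation of log2 CPM over detected genes was 0.993, across genes that are not independent. A difference of more than 0.5 on the log2 scale was seen at 3 genes higher in replicate 1 and 7 higher in replicate 2.

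Of named genes, Nptx2, a secreted pentraxin induced by activity, was 1.51-fold higher in replicate 1 (95% counting interval 1.33 to 1.71) with 84.2 and 55.8 CPM. The ribosomal protein gene Rps29 (103 and 70.9 CPM), the Wnt pathway scaffold Axin1 (36 and 25.3 CPM), Npy (93.7 and 66.3 CPM) and the synaptic organizer Cbln2 (24.8 and 17.6 CPM) also leaned to replicate 1. On the other side Fn1 was 1.59-fold higher in replicate 2 (95% counting interval 1.28 to 1.96), and Col4a1, a basement membrane collagen, was 1.55-fold higher in replicate 2 (95% counting interval 1.32 to 1.81). The transcription factor Klf11 (17 and 25.3 CPM) and the carbonic anhydrase relative Car10 (23.5 and 33.8 CPM) also leaned to replicate 2. Levels also drifted with transcript length. The median log2 ratio of replicate 1 to replicate 2 was 0.061 for the 626 genes with under 2 kb of merged exons, 0.028 for 1981 genes of 2 to 4 kb, 0.0012 for 3162 genes of 4 to 8 kb and -0.037 for 1900 genes above 8 kb. The part of this drift in the differences of short genes such as Rps29 and Npy, and of long ones such as Fn1, was not tested.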

How the data were processed

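PolyA RNA of all libraries was measured by RNA-seq. The authors deposited a table of raw counts for 48526 Ensembl genes and a table of signal values, normalized counts, whose ratio to the raw counts was constant within each library. Per the submitters' processing notes, mm10, SAMtools, DESeq2 and deepTools were used; not given in the sources used here are an aligner, a counter with its strand setting and treatment of reads that fit several places, and a gene annotation version.

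The deposited raw counts of control virus replicates 1 and 2 were divided by their totals (14142545 and 5682480) and multiplied by 1000000. The normalized table served for gene symbols: of 12914 detected genes 12402 took their symbol from it and 478 from a table of gene names, and 34 have none. Lengths are merged exons in GENCODE M21 on GRCm38, which lists 48144 of the 48526 IDs. The longest transcript and the mean transcript length were tried as alternatives. Promoters are RefSeq windows on GRCm38.p6. Work was done in Python 3.11.15 with NumPy 2.4.6, SciPy 1.17.1 and pandas 2.3.3, and the level script was tested on simulated data.

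Detected means at least 1 CPM in both libraries, and the floor is 3 counts. Intervals are exact 95% counting intervals. The text names the 20 highest genes by CPM and the 10 highest nuclear protein-coding genes per kb. Of each family it names the leading 2 members and those at 3 counts or fewer in both libraries. Of each cell class it names at least the 3 highest markers and the defining markers at 3 counts or fewer in both libraries. It also names the 5 genes on each side with the largest ratio between the libraries, leaving out provisional symbols. Undetected genes above the floor are not all named. Other family members were added as examples. Members and lists were chosen with earlier results of these data known. No protein sequence was used here. Some genes that these rules name are not reported here.

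Of the 637 list genes, 24 have more than 25% of their exon length overlapped by other genes; with the strand setting unknown, reads of such pairs cannot be told apart.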

Additional observations from a re-analysis of the deposited data

How the results depend on the processing

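No paired analysis was possible because the libraries form 1 group and no comparison between groups was made. Without a minimum level, 22521 genes had a count in either library, against 12914 at 1 CPM in both. Alone, a library gave 13185 to 13498 genes at 1 CPM. The share of counts in the top 100 genes was 13.5% without mitochondrial genes, 15.2% with replicates 1 and 3 averaged as 1 sample, and 15.29% to 15.31% in single libraries. The ratio of neuronal to non-neuronal marker levels was 68.4 by medians, 57.4 to 79.3 in single libraries and 14.2 by means over the lists. With a minimum of 5 CPM, 194 of 10684 genes differed by more than 0.5 (log2) between the libraries, against 10 of 7674 at 20 CPM. Scaling by TMM factors changed levels of the 214 genes named by the rule by ratios of 0.992 to 1.01, and leaving out mitochondrial genes by up to 1.03. Neither changed the leader of any of the 62 families. The leader was the same in 57 families by the longest transcript and in 45 by the mean transcript length. Depth limits replicate 2 most: its floor of 3 counts is 0.528 CPM.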

Other observations

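Immediate-early genes, which neurons induce within minutes of activity, were present without stimulation. Of 17 such genes 16 reached 1 CPM in both libraries. Fosl2 had the largest share of the counts with 297 and 279.6 CPM, and Nr4a3, an orphan nuclear receptor, had 233 and 221 CPM. Jund had 134 and 127 CPM, with 52.6% of its exon length overlapped by another gene. Fos had 49.2 and 48.2 CPM, Npas4, which responds to calcium entry, had 23.7 and 20.6 CPM, Egr1 had 6.93 and 12.1 CPM and Arc, a synaptic effector gene, had 2.26 and 3.34 CPM. Per kb Fos stood at 20.7 ± 0.299 CPM per kb and Arc at 0.917 ± 0.25 CPM per kb, a difference that both libraries showed.

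Transcripts of both sexes were present in each library. Xist, the RNA of the inactive X chromosome, had 441 and 469 CPM, and all 4 Y-linked genes were detected, with Ddx3y at 40.5 and 34.8 CPM, Eif2s3y at 22.6 and 20.4 CPM, Kdm5d at 10.3 and 9.15 CPM and Uty at 9.76 and 8.27 CPM. The sum of the Y-linked genes was 83.2 and 72.7 CPM. Tsix, which is antisense to Xist, had no count in either library. The labels do not give the sex of the embryos.

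H2bc21, the gene of the histone variant that the study expressed in other groups, had 5.23 and 5.28 CPM in these control cultures.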
